A study of Homo sapiens with 60 samples.

Results

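The autophagy and lysosome genes described here are 39 human genes chosen by symbol: receptors that hand cargo to the autophagosome, the machinery that builds it, the regulators that switch the lysosomal programme, and the membrane proteins, hydrolases and proton pump of the lysosome. All 39 were found, each under 1 Ensembl identifier, among the 60675 genes of the count table. Of them, 38 passed the filter on low counts and were tested among 16093 genes. The remaining one, ULK2, a kinase related to ULK1, had 0 to 6 counts per library and was not tested.

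The libraries are RNA-seq of HepG2, a human hepatocellular carcinoma line of hepatocyte type, exposed for 24 h to water extracts used in herbal medicine for digestive complaints. Doses were 20, 100 and 500 µg/mL, and 6 extracts had 3 libraries at each dose. Of these 6, 4 came from single drugs (Aconiti Lateralis Radix Preparata, Cimicifugae Rhizoma, Bupleuri Radix and Citri Unshius Pericarpium) and the others from the formulas Yijung-tang and Banhasasim-tang. The formula Bojungikgi-tang was sequenced once at each dose, and 3 libraries came from cells given only the vehicle, labelled 0.1% DMSO (the series' own design text names 2% DMSO, a wortmannin control not analysed here, and lower doses for extracts toxic below 500 µg/mL; doses here are as the sample labels give them, and which text applies could not be settled). The titles code the extracts in sets: Citri with Cimicifugae, Bupleuri with Aconiti, and Yijung-tang with Banhasasim-tang. Bojungikgi-tang and vehicle have codes of their own, so that set and treatment cannot be told apart in any comparison with vehicle. The labels give a DMSO content for the vehicle libraries only. Whether the extract cultures also held DMSO is not known, nor is its part in those comparisons. All groups share 1 unmodified cell line. The labels do not say whether replicates came from separate cultures; a p-value here covers only the spread between libraries, which may be technical.

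Autophagy encloses cytoplasmic cargo in a double membrane and delivers it to the lysosome. The ULK1 kinase and a PI3-kinase complex start the membrane, ATG9A and ATG2A supply its lipids, and ubiquitin-like enzymes attach ATG8 proteins such as LC3 to it, where receptors such as p62 (SQSTM1) dock. Acid hydrolases then degrade the cargo, and TFEB and TFE3 are transcription factors that drive many of these genes when nutrients are short. In liver cells the pathway is known for turning over damaged organelles, lipid droplets and glycogen. Since RNA of whole cultures was measured, fewer cells of a kind and less RNA per cell cannot be told apart, and none of these values measures autophagic flux.

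Library totals ran from 17598646 to 30451640 estimated counts. The hepatocyte-type markers were high in every library (ALB 6563 to 10240 CPM, counts scaled to the TMM-adjusted library total). Markers of other cell types were mixed. COL3A1 reached at most 0.0893 CPM, CDH5 0.731 CPM, VWF 1.21 CPM, COL1A1 1.47 CPM and CD14 2.83 CPM, whereas CD68 stood at 31.03 to 70.1 CPM, PDGFRB at 6.00 to 15.5 CPM and PECAM1 at 1.64 to 5.97 CPM. PTPRC was at 0 in 56 libraries, with 6.93 CPM in the second vehicle library, which stands apart in this marker. Of 11 RNAs that report on RNA quality (long nuclear RNAs, histone RNAs and mitochondrial rRNAs), 7 rose at 500 against 20 µg/mL with Cimicifugae, 6 with Aconiti, 3 with Bupleuri, 2 with Yijung-tang, 2 with Banhasasim-tang and 1 with Citri, and none fell in these edgeR tests. Mitochondrial rRNA made up 12.4% to 12.8% of counts at 500 µg/mL Aconiti, against 3.14% to 3.29% at 20 µg/mL and 2.29% to 2.54% in vehicle, whereas in the 500 µg/mL groups of the other replicated extracts it lay between 3.36% and 4.50%. Of 9 markers of fibroblasts, leukocytes and endothelium, 7 could be tested. With Aconiti 2 rose (PDGFRB and CD68, itself a protein of the lysosomal membrane) and 3 fell, and their summed level was 84.9 to 87.6 CPM at 500 µg/mL, against 63.4 to 65.2 CPM at 20 µg/mL. With Cimicifugae the same 2 rose and 3 fell, with 69.6 to 74.8 CPM at 500 µg/mL, against 56.3 to 58.9 CPM at 20 µg/mL. In the other extracts 0 to 2 rose and 0 to 2 fell. The part of these RNAs and markers in the results below was not tested.

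Among the comparisons of 500 against 20 µg/mL, the highest against the lowest dose of the same extract, most genes were called with Cimicifugae and Aconiti, and these went mostly upwards. A gene was called where its adjusted p, from edgeR's quasi-likelihood test with Benjamini-Hochberg adjustment over all 16093 genes, was under 0.05. With Cimicifugae 23 of the 38 tested genes rose and 3 fell, where 19.5% and 19.7% of all genes rose and fell. With Aconiti 21 rose and 2 fell, against 19.2% and 18.1% of all genes. With Bupleuri 10 rose and 2 fell, against 9.9% and 8.89%. Banhasasim-tang had 4 higher and 4 lower, against 8.59% and 6.52%, and once a trend on GC content was taken out of each library, 7 higher and 4 lower. With Citri and with Yijung-tang 2 genes rose and 0 fell, against 0.727% and 0.92% of all genes for Citri and 1.65% and 2.12% for Yijung-tang. For those 0, the count at an unadjusted p under 0.05 was 1 in each extract, and DESeq2 also gave 0. With each library left out in turn Citri had 1 or 2 calls, with 1 without any of 5 libraries. Yijung-tang had 1 to 3, with 1 without the first library of either dose, and Banhasasim-tang had 5 to 9, with 5 without the second 20 µg/mL library.

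The median log2 fold change over the 38 genes was 0.15 with Cimicifugae, 0.16 with Aconiti, 0.07 with Bupleuri and between 0.01 and 0.02 with the other three extracts. The median over all 16093 genes was 0.00 in each of the 6 comparisons. The 39 genes together held 0.427% to 0.437% of counts at 500 µg/mL Cimicifugae, against 0.357% to 0.364% at 20 µg/mL, and 0.393% to 0.397% at 500 µg/mL Aconiti, against 0.360% to 0.371% at 20 µg/mL. These ranges do not overlap in either extract. The shares are of all counts, mitochondrial rRNA included. That rRNA made up 12.4% to 12.8% at 500 µg/mL Aconiti, against 3.14% to 3.29% at 20 µg/mL, which lowers the shares of all other genes at 500 µg/mL.

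**Figure D1:**
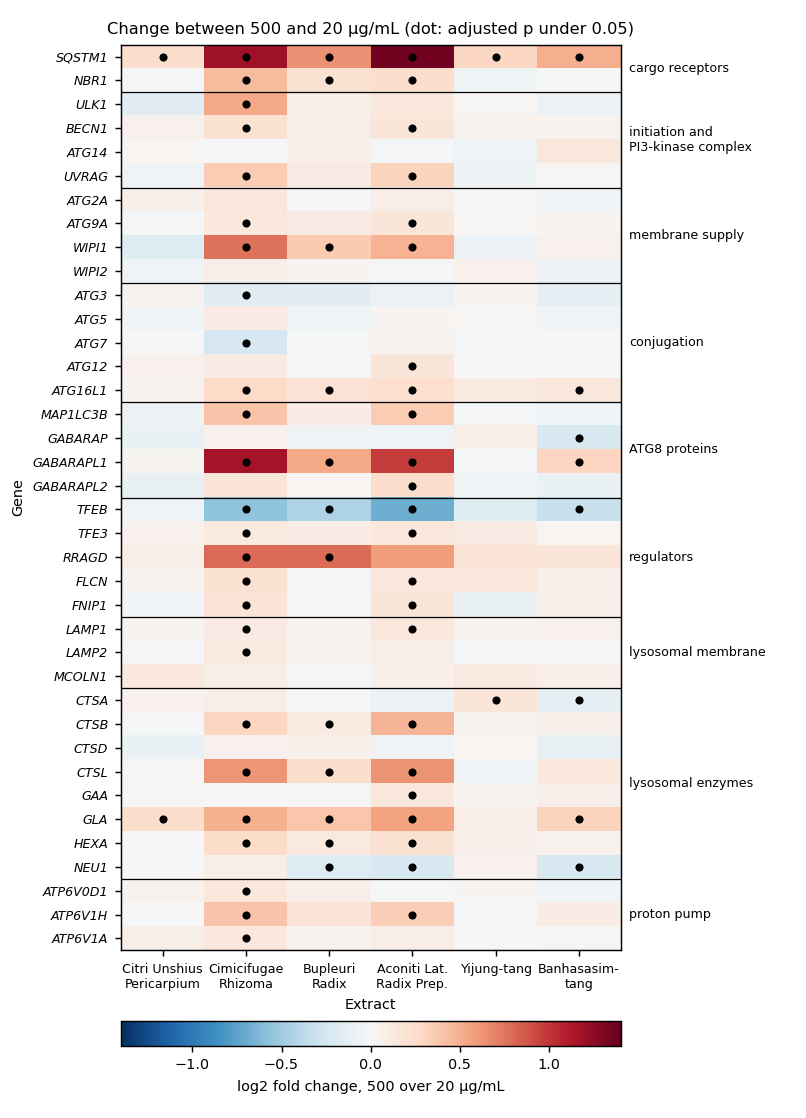
Log2 fold change at 500 over 20 µg/mL (colour) for the 38 tested genes (rows, by role) in the 6 replicated extracts (columns), with a dot where the adjusted p was under 0.05. The first row, SQSTM1, carries a dot in all 6 columns, and the columns of Cimicifugae and Aconiti hold 26 and 23 dots.

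Cargo receptors and autophagosome machinery (19 tested of 20 genes) were set beside the 8 lysosomal enzymes. With Cimicifugae 10 of 19 receptor and machinery genes rose and 2 fell, and 4 of 8 enzymes rose and 0 fell; the medians were 0.18 and 0.17 on the log2 scale. With Aconiti 11 of 19 rose and 0 fell, and 5 of 8 enzymes rose and 1 fell, with medians of 0.17 and 0.19. With Bupleuri 5 of 19 and 4 of 8 rose, 1 enzyme fell, and the medians were 0.08 and 0.10. The medians of both classes thus lay close together in these 3 extracts. With Citri and with Yijung-tang 1 gene of each class rose. With Banhasasim-tang 3 of the 19 rose and 1 fell, and 1 of the 8 enzymes rose and 2 fell. The spread within a class was wider than the gap between classes: with Cimicifugae the receptor and machinery genes ran from -0.23 for ATG7 to 1.19 for SQSTM1. No test of one class against the other was made.

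**Figure D2:**
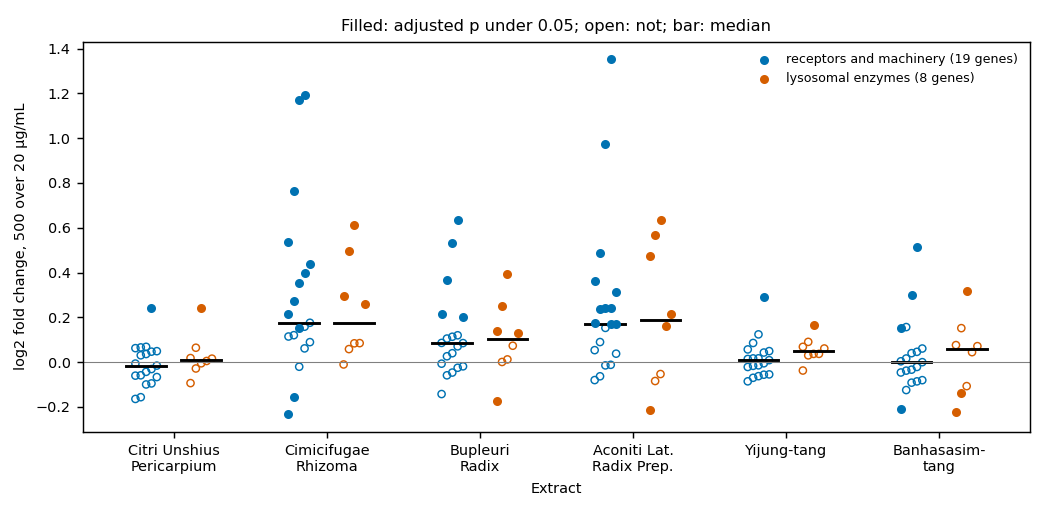
Log2 fold change at 500 over 20 µg/mL of each receptor or machinery gene (left of each pair, 19 genes) and each lysosomal enzyme (right, 8 genes) by extract; filled points had an adjusted p under 0.05 and bars are medians. The medians of both classes sit side by side in each extract, and the highest points of Cimicifugae and Aconiti (1.19 and 1.35) are SQSTM1.

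SQSTM1 (ENSG00000161011, chromosome 5, 179806398 to 179838078, plus strand, GRCh38) encodes p62, the receptor that binds ubiquitin-tagged cargo and LC3 and also the redox sensor KEAP1. It rose at 500 against 20 µg/mL in all 6 extracts, without overlap of the libraries in any. With Aconiti the 3 libraries had 699, 720.0 and 724 CPM at 500 µg/mL, against 271, 288 and 281 CPM at 20 µg/mL. With Cimicifugae they had 537, 547 and 537 CPM, against 242, 232 and 237 CPM. These were increases of 1.35 ± 0.032 (adjusted p = 9.13e-35) and 1.19 ± 0.033 (adjusted p = 3.36e-32) on the log2 scale (SE, n = 3 each, edgeR). With Bupleuri SQSTM1 stood at 390.3, 379 and 404 CPM, against 254, 246 and 257 CPM, a rise of 0.64 ± 0.032. With Banhasasim-tang the values were 359.9, 364 and 364 CPM, against 249.9, 266 and 247 CPM, a rise of 0.51 ± 0.032. Both of these were smaller than with Aconiti or Cimicifugae. Yijung-tang gave 324, 331 and 313 CPM, against 259.6, 264 and 267 CPM (0.29 on the log2 scale), and Citri 287, 279.6 and 287 CPM, against 241, 240.3 and 241 CPM (0.24). The largest adjusted p of the 6 was 1.84e-06, for Citri. In the vehicle libraries it stood at 230.4, 231 and 237 CPM.

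**Figure D3:**
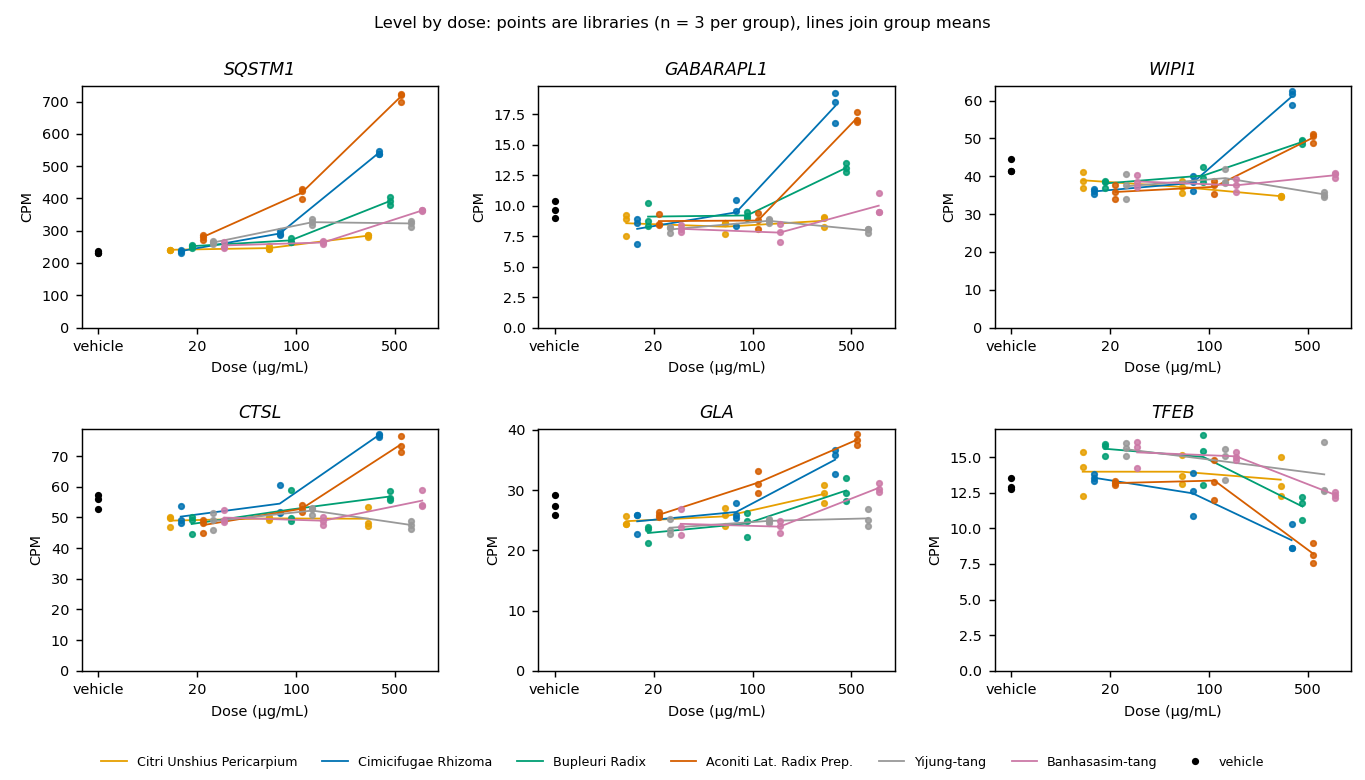
CPM (linear axes from 0) of SQSTM1, GABARAPL1, WIPI1, CTSL, GLA and TFEB in each of 57 libraries by dose, with vehicle at the left; points are libraries, lines join the means of 3, colours are extracts. SQSTM1 reaches 699 to 724 CPM at 500 µg/mL Aconiti, and TFEB is lowest in the 500 µg/mL groups of Aconiti and Cimicifugae.

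NBR1, a receptor that shares p62's domain plan, rose at 500 against 20 µg/mL with Cimicifugae (0.44 on the log2 scale), Aconiti (0.24) and Bupleuri (0.22). It was not called in the other three extracts, with -0.06 in Yijung-tang and -0.03 in Citri. Of the initiation genes, ULK1 was called only with Cimicifugae, where the libraries had 33.7, 38.3 and 34.7 CPM at 500 µg/mL, against 25.5, 21.8 and 26.2 CPM at 20 µg/mL (0.54 ± 0.083, adjusted p = 5.36e-07, edgeR). In the other 5 extracts its change ran from -0.16 to 0.15. BECN1, the scaffold of the PI3-kinase complex, rose by 0.22 with Cimicifugae and 0.17 with Aconiti. UVRAG, a subunit of one form of that complex, rose by 0.35 and 0.31 with the same extracts. ATG14, the subunit of the other form, was called in none of the 6.

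Among the membrane genes WIPI1, which binds the lipid made by the PI3-kinase, changed most. With Cimicifugae it had 61.9, 62.5 and 58.8 CPM at 500 µg/mL, against 36.2, 35.2 and 36.6 CPM at 20 µg/mL. With Aconiti it had 51.2, 50.7 and 48.9 CPM, against 35.9, 33.9 and 37.8 CPM, and with Bupleuri 48.5, 49.3 and 49.5 CPM, against 38.9, 38.6 and 36.8 CPM. The groups did not overlap in these 3 extracts, and the rises were 0.76, 0.49 and 0.37 on the log2 scale. With Citri WIPI1 stood at 34.6, 34.8 and 34.8 CPM, against 41.2, 36.9 and 38.8 CPM, below in each library but not called (-0.16 ± 0.053, adjusted p = 0.119, edgeR). ATG9A, a lipid scramblase carried on vesicles, rose by 0.15 with Cimicifugae and 0.17 with Aconiti. ATG2A, which moves lipids into the membrane, and WIPI2, the second PI3P-binding protein listed, were not called in any extract.

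Of the conjugation enzymes ATG16L1, which places the ligase complex on the membrane, rose in 4 extracts: by 0.27 with Cimicifugae, 0.23 with Aconiti, 0.20 with Bupleuri and 0.15 with Banhasasim-tang. ATG12, which is joined to ATG5 in that ligase, rose by 0.17 with Aconiti, where the libraries overlapped. ATG5 was called in none of the 6. ATG7 and ATG3 went the other way with Cimicifugae. ATG7, the E1-like enzyme, had 14.2, 12.2 and 15.2 CPM at 500 µg/mL, against 15.7, 16.4 and 16.8 CPM at 20 µg/mL, and fell by 0.23 on the log2 scale (adjusted p = 0.0185, edgeR). ATG3, the E2-like enzyme, had 35.9, 31.6 and 32.3 CPM, against 38.95, 36.8 and 35.7 CPM, and fell by 0.16 with overlapping libraries (adjusted p = 0.0235). The call of ATG7 was lost without the second 500 µg/mL library (adjusted p = 0.185, edgeR) or the third 20 µg/mL library (0.0658). That of ATG3 was lost without the first 20 µg/mL library (adjusted p = 0.135, edgeR), or the second (0.129) or the third (0.0952) 500 µg/mL library.

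The 4 listed ATG8 genes, whose proteins coat the autophagosome and bind receptors, did not move alike. GABARAPL1 (ENSG00000139112, chromosome 12, 10212458 to 10223130, plus strand) had the largest rises. With Cimicifugae its libraries had 18.5, 19.2 and 16.8 CPM at 500 µg/mL, against 6.83, 8.54 and 8.90 CPM at 20 µg/mL, a rise of 1.17 ± 0.084 (adjusted p = 1.91e-16) on the log2 scale (edgeR). With Aconiti they had 16.98, 16.9 and 17.7 CPM, against 8.40, 9.27 and 8.52 CPM (0.97). The lowest 500 µg/mL library stood above the highest 20 µg/mL library in both extracts. With Bupleuri it had 13.04, 12.7 and 13.5 CPM, against 8.35, 10.2 and 8.74 CPM (0.53), and with Banhasasim-tang 10.998, 9.48 and 9.50 CPM, against 7.85, 8.04 and 8.39 CPM (0.30). The call with Banhasasim-tang was lost without its first 500 µg/mL library (adjusted p = 0.111, edgeR) and when the fit held just the 2 groups (0.0548). MAP1LC3B, which encodes LC3B, rose by 0.40 with Cimicifugae and 0.36 with Aconiti, and GABARAPL2 by 0.24 with Aconiti. GABARAP itself fell with Banhasasim-tang, with 91.3, 98.2 and 93.2 CPM at 500 µg/mL, against 102, 117 and 108 CPM at 20 µg/mL (-0.21). It was not called in the other 5 extracts. Without the second 20 µg/mL library that fall was no longer called (adjusted p = 0.0562, edgeR).

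TFEB (ENSG00000112561, chromosome 6, 41683978 to 41736259, minus strand), whose protein activates lysosomal genes, was the most lowered gene of the list. With Aconiti it had 7.54, 8.11 and 8.97 CPM at 500 µg/mL, against 13.2, 13.3 and 13.004 CPM at 20 µg/mL, and with Cimicifugae 8.59, 8.59 and 10.3 CPM, against 13.8, 13.3 and 13.5 CPM. With Bupleuri it had 10.6, 11.8 and 12.2 CPM, against 15.04, 15.9 and 15.8 CPM, and with Banhasasim-tang 12.3, 12.6 and 12.1 CPM, against 14.2, 16.04 and 15.7 CPM. The groups did not overlap in any of the 4. The log2 changes were -0.69 ± 0.099 (adjusted p = 1.37e-07) with Aconiti, -0.57 ± 0.10 with Cimicifugae, -0.43 ± 0.091 with Bupleuri and -0.31 ± 0.089 with Banhasasim-tang (edgeR). With Yijung-tang and Citri the change was -0.17 and -0.06 and not called. Without the second 20 µg/mL library the fall with Banhasasim-tang was not called either (adjusted p = 0.0584, edgeR).

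TFE3, the related factor, rose by 0.14 with Cimicifugae and 0.14 with Aconiti. FLCN and FNIP1, which form the complex that lets the Rag proteins hold these factors in the cytoplasm, rose in the same extracts, FLCN by 0.21 and 0.16 and FNIP1 by 0.18 and 0.17. RRAGD, one of those Rag GTPases, was the lowest of the tested genes, with 1.03, 0.684 and 0.539 CPM in vehicle. It had 2.10, 1.82 and 1.08 CPM at 500 µg/mL Cimicifugae, against 1.06, 0.850 and 0.994 CPM at 20 µg/mL (0.79 ± 0.27, adjusted p = 0.0181, edgeR). With Bupleuri it had 1.44, 1.61 and 0.961 CPM, against 0.771, 0.597 and 0.937 CPM (0.78 ± 0.28, adjusted p = 0.0417). In both extracts the 500 µg/mL libraries ranged more widely than the group means differed. The call with Cimicifugae was lost without the first (adjusted p = 0.149, edgeR) or second (0.0633) 500 µg/mL library or the second 20 µg/mL library (0.0686). That with Bupleuri was lost under 7 of 12 alternatives, among them leaving out the first or second library of either dose (adjusted p = 0.105 to 0.211, edgeR). With Aconiti RRAGD stood at 1.24, 1.24 and 1.32 CPM, against 1.04, 0.517 and 0.998 CPM, and was not called.

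Lysosomal membrane genes moved little between these doses. LAMP1, an abundant glycoprotein of the lysosomal coat, rose by 0.11 with Cimicifugae and 0.14 with Aconiti, and LAMP2 by 0.13 with Cimicifugae. MCOLN1, a calcium channel of the lysosome, was called in none of the 6. Of the proton pump, which acidifies the lysosome, ATP6V1H rose by 0.40 with Cimicifugae and 0.34 with Aconiti. ATP6V0D1 and ATP6V1A rose with Cimicifugae, both by 0.15. No pump gene was called in the other 4 extracts, and none was called lower in any of the 6.

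Among the enzymes GLA, the alpha-galactosidase that is deficient in Fabry disease, rose in 5 extracts. It had 37.5, 39.2 and 38.3 CPM at 500 µg/mL Aconiti, against 25.8, 26.3 and 25.5 CPM at 20 µg/mL, and 32.6, 36.6 and 35.9 CPM at 500 µg/mL Cimicifugae, against 25.8, 25.9 and 22.7 CPM. Bupleuri gave 28.3, 29.5 and 32.02 CPM, against 21.2, 23.6 and 23.8 CPM, and Banhasasim-tang 31.2, 29.7 and 30.1 CPM, against 22.5, 26.8 and 23.9 CPM. The rises were 0.57, 0.50, 0.39 and 0.32 on the log2 scale, with no overlap. With Citri it had 29.4, 30.8 and 27.9 CPM, against 25.8, 24.3 and 24.4 CPM (0.24 ± 0.066, adjusted p = 0.043, edgeR), a call lost under 6 of 13 alternatives, among them leaving out any of 5 libraries (adjusted p = 0.0701 to 0.231, edgeR). With Yijung-tang it stood at 24.98, 26.9 and 23.99 CPM, against 23.3, 22.6 and 25.3 CPM, with overlap and no call.

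CTSL, a cysteine protease of the lysosome, had 77.2, 76.9 and 76.3 CPM at 500 µg/mL Cimicifugae, against 48.999, 53.7 and 48.1 CPM at 20 µg/mL. With Aconiti it had 76.4, 73.3 and 71.4 CPM, against 44.9, 48.3 and 49.2 CPM, and with Bupleuri 56.2, 55.7 and 58.5 CPM, against 44.4, 49.1 and 50.03 CPM. The groups stood apart in all 3, with rises of 0.61 ± 0.058, 0.63 ± 0.058 and 0.25 ± 0.058 on the log2 scale. CTSB, the related protease, rose by 0.48 with Aconiti, 0.30 with Cimicifugae and 0.13 with Bupleuri. HEXA, a hexosaminidase, rose by 0.26 with Cimicifugae, 0.21 with Aconiti and 0.14 with Bupleuri. GAA, which degrades glycogen, rose only with Aconiti, by 0.16, and CTSD, an aspartic protease, was not called in any of the 6.

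NEU1, the lysosomal sialidase, fell in 3 extracts. It had 289, 282 and 296 CPM at 500 µg/mL Aconiti, against 331, 335 and 340.1 CPM at 20 µg/mL, and 304, 289 and 298 CPM at 500 µg/mL Banhasasim-tang, against 336, 366 and 338 CPM. With Bupleuri it had 293, 292 and 317 CPM, against 335, 344 and 339 CPM. No library overlapped between doses in these 3 extracts, and the log2 changes were -0.22, -0.22 and -0.18. CTSA, the carboxypeptidase that keeps NEU1 stable, fell with Banhasasim-tang, with 360.2, 369.9 and 359.7 CPM at 500 µg/mL, against 398, 412 and 389 CPM at 20 µg/mL (-0.14 ± 0.040, adjusted p = 0.0123, edgeR). That fall was lost without the second 20 µg/mL library (adjusted p = 0.0643, edgeR), after the GC trend was taken out (0.0522) and when the fit held just the 2 groups (0.0652). With Yijung-tang CTSA rose, with 439, 431 and 402 CPM, against 365, 377 and 393 CPM (0.16 ± 0.040, adjusted p = 0.00803). That rise was lost under 4 of 13 alternatives: without the first or second 500 µg/mL library or the first 20 µg/mL library (adjusted p = 0.0526 to 0.0927, edgeR), and when the fit held just the 2 groups (0.30).

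At 100 against 20 µg/mL few of the 38 genes were called: 4 with Aconiti, 2 without the second or the third 100 µg/mL library (5.68% of all genes in either direction), 1 with Cimicifugae (1.29%) and 1 with Yijung-tang (1.24%). Each of these 3 included SQSTM1, which rose by 0.58 ± 0.032, 0.30 ± 0.032 and 0.31 ± 0.032 on the log2 scale. In Yijung-tang its libraries had 259.6, 264 and 267 CPM at 20 µg/mL, 336, 325 and 318 CPM at 100 µg/mL and 324, 331 and 313 CPM at 500 µg/mL, so that the upper doses overlapped. In Aconiti they had 271, 288 and 281 CPM, 397, 429.6 and 424 CPM and 699, 720.0 and 724 CPM in the same order, without overlap. Mitochondrial rRNA made up 8.31% to 8.88% of counts at 100 µg/mL Aconiti, against 3.14% to 3.29% at 20 µg/mL, and of the 11 RNA-quality genes 2 rose (both mitochondrial rRNAs) and 1 fell (HIST1H2AC); their part was not tested. The other called genes of Aconiti were GLA (0.27), TFE3 (0.17) and NBR1 (-0.15). The call of NBR1 was lost without the second 100 µg/mL library (adjusted p = 0.0648, edgeR) and with no filter on low counts (0.0933). Its libraries lay lower at 100 than at 20 µg/mL and higher at 500 µg/mL: 101, 100.4 and 102 CPM, 89.9, 89.2 and 94.3 CPM and 117, 125 and 116 CPM from low to high dose.

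With Bupleuri (0.162% of all genes), Citri (0.0249%) and Banhasasim-tang (0.0124%) the edgeR count at 100 against 20 µg/mL was 0. At an unadjusted p under 0.05 it was 4 with Bupleuri, 0 with Citri and 1 with Banhasasim-tang, and DESeq2 gave 0 in each of these 3 extracts.

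Whether the dose effect differed between the extracts of one set was tested as an interaction in the same edgeR fit. The change with Cimicifugae was higher than that with Citri for 17 of the 38 genes and lower for 2 (28.2% of all genes in either direction). The smallest p belonged to SQSTM1, with a difference of 0.95 ± 0.046 on the log2 scale, followed by WIPI1 (0.93 ± 0.074) and GABARAPL1 (1.13 ± 0.12). The 2 lower genes were TFEB (-0.50) and ATG3 (-0.20). Between Aconiti and Bupleuri 5 genes differed, all with the larger change under Aconiti (10.2% of all genes): SQSTM1 (0.72 ± 0.045), CTSB (0.34 ± 0.044), CTSL (0.38 ± 0.082), GABARAPL1 (0.44) and MAP1LC3B (0.26). At an unadjusted p under 0.05 there were 8 in that direction and 0 in the other, and DESeq2 gave 5 and 0. Between Banhasasim-tang and Yijung-tang 4 differed (12.1%): CTSA (-0.30 ± 0.056), NEU1 (-0.28 ± 0.054), GABARAP (-0.30) and SQSTM1 (0.22 ± 0.045). SQSTM1 is the only gene of the list called in all 3 of these differences. The counts for Aconiti with Bupleuri and for Banhasasim-tang with Yijung-tang were near the shares over all genes.

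Against vehicle, 20 µg/mL already differed in each extract, in both directions: 7 of the 38 genes rose and 7 fell with Citri (11% and 8.35% of all genes), 7 and 7 with Cimicifugae (10.7% and 8.26% of all genes), 10 and 8 with Bupleuri (12.6% and 9.34% of all genes), 10 and 9 with Aconiti (16.8% and 14.4% of all genes), 10 and 12 with Yijung-tang (14.8% and 12.4% of all genes) and 9 and 11 with Banhasasim-tang (15.3% and 13.1% of all genes). These comparisons share the 3 vehicle libraries, so that calls in several extracts are not independent of each other. GAA, MCOLN1, TFE3, CTSA, CTSD and ATG9A were called higher in all 6 and BECN1, ATG5, LAMP2 and ATP6V1A lower in all 6. Without the second vehicle library the counts were 6 and 6 with Citri, 2 and 6 with Cimicifugae, 7 and 7 with Bupleuri, 8 and 9 with Aconiti, 8 and 8 with Yijung-tang and 8 and 8 with Banhasasim-tang. With Cimicifugae they came to 9 in all without the first vehicle library and to 8 without the first 20 µg/mL library, against 14. Leaving out the first vehicle library gave 6 and 5 with Citri, 3 and 6 with Cimicifugae and 7 and 7 with Bupleuri. Leaving out the third gave 7 and 5 with Citri, 6 and 6 with Cimicifugae and 9 and 8 with Bupleuri. GAA had 146, 154 and 160.1 CPM at 20 µg/mL Aconiti and 129, 142 and 148 CPM at 20 µg/mL Citri, against 108, 111 and 113 CPM in vehicle. MCOLN1 had 12.4, 12.9 and 14.002 CPM and 11.4, 12.6 and 12.9 CPM in the same groups, against 9.18, 9.99 and 9.88 CPM. Both genes lay above all vehicle libraries in these groups, GAA by 0.48 and 0.34 on the log2 scale and MCOLN1 by 0.44 and 0.35.

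The direction of these low-dose differences went with base composition. The 8 genes called higher in 5 or 6 extracts had transcript GC contents of 59.8% to 64.2%, the 7 called lower in 5 or 6 had 37.7% to 52.5%, and the other 23 had 37.5% to 58.1%. After the GC trend was taken out, 0 rose and 4 fell with Citri, 1 and 7 with Cimicifugae, 2 and 3 with Bupleuri, 5 and 7 with Aconiti, 2 and 6 with Yijung-tang and 1 and 2 with Banhasasim-tang. The mean over the extracts was then 0.11 for GAA, against 0.40 as fitted, and 0.15 for MCOLN1, against 0.37. The 7 genes called lower in 5 or 6 extracts stayed below 0 to differing degrees. CTSL was at -0.23 (-0.18 as fitted), WIPI1 at -0.18 (-0.18), GABARAPL2 at -0.17 (-0.26) and ATP6V1A at -0.16 (-0.26). ATG5 was at -0.13 (-0.24), BECN1 at -0.12 (-0.18) and LAMP2 at -0.01 (-0.12). The vehicle libraries were coded as a set of their own, and the part of that set in the GC trend cannot be told apart from that of the treatment. Between 500 and 20 µg/mL the same correction left 22 higher and 3 lower with Cimicifugae and 22 and 2 with Aconiti, close to the 23 and 3 and the 21 and 2 given above.

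**Figure D4:**
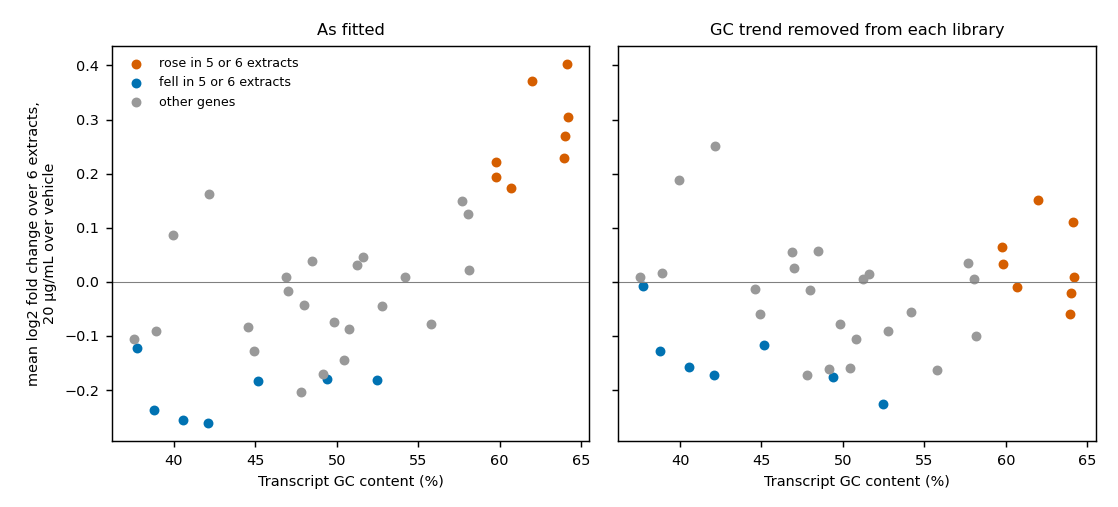
Mean log2 fold change at 20 µg/mL over vehicle across 6 extracts (vertical) against transcript GC content in percent (horizontal) for 38 genes, as fitted (left) and after a GC trend was taken out of every library (right). In the left panel the 8 genes called higher in 5 or 6 extracts all lie at or above 59.8% GC, and in the right panel their values lie between -0.06 and 0.15. The 7 genes called lower in 5 or 6 extracts lie between -0.23 and -0.01 in the right panel.

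At 500 µg/mL against vehicle 25 of the 38 genes rose and 2 fell with Cimicifugae (23.5% and 22.3% of all genes) and 21 rose and 5 fell with Aconiti (24.5% and 22.9% of all genes). All 8 lysosomal enzymes were called higher with Cimicifugae, and 7 higher and 1 lower, NEU1, with Aconiti. At 500 against 20 µg/mL 4 of the 8 rose with Cimicifugae and 5 with Aconiti. CTSA, CTSD and GAA were already called higher than vehicle at 20 µg/mL in all 6 extracts. Their mean differences there were 0.17, 0.23 and 0.40 as fitted, and -0.01, -0.06 and 0.11 with the GC trend removed. The counts were 17 and 6 with Bupleuri (19% and 16.6% of all genes), 11 and 11 with Yijung-tang (17.5% and 15.1% of all genes), 9 and 9 with Banhasasim-tang (18.6% and 16.2% of all genes) and 7 and 10 with Citri (12.7% and 9.78% of all genes). With the GC trend removed they were 20 and 2 with Cimicifugae, 18 and 5 with Aconiti, 11 and 5 with Bupleuri, 7 and 3 with Yijung-tang, 5 and 6 with Banhasasim-tang and 5 and 8 with Citri. Without the second vehicle library the counts were 22 and 2 with Cimicifugae, 18 and 4 with Aconiti, 15 and 5 with Bupleuri, 10 and 10 with Yijung-tang, 10 and 10 with Banhasasim-tang and 6 and 8 with Citri. Leaving out the first vehicle library gave 23 and 1 with Cimicifugae, 15 and 4 with Bupleuri and 7 and 9 with Citri. Leaving out the third gave 23 and 1 with Cimicifugae, 15 and 4 with Bupleuri and 7 and 8 with Citri. SQSTM1 rose in all 6, from 0.29 on the log2 scale with Citri to 1.62 with Aconiti. GABARAPL1 rose against vehicle with Cimicifugae (0.91), Aconiti (0.83) and Bupleuri (0.43) and fell with Yijung-tang (-0.28). TFEB fell with Aconiti (-0.67) and Cimicifugae (-0.51).

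The promoters of the 39 genes, whether or not they were called, were sought among RefSeq windows (GRCh38.p14). These run from 250 bases before each start to 50 bases after it. Such windows were found for 32 of the 39 genes, 39 windows in all. Each was searched on both strands for CACGTG (the E-box), TCACGTGA (the core of the CLEAR element that TFEB and TFE3 bind, which contains the E-box) and TGACNNNGC (the core of the antioxidant response element). CACGTG occurred in 10 of the 39 windows (25.6%), against 7.26% of all 35116 windows. TCACGTGA occurred in 6 (15.4%), against 0.98%, and TGACNNNGC in 8 (20.5%), against 13.3%. The TCACGTGA windows belonged to ATG3, ATP6V0D1, CTSA, GAA, LAMP1 and MCOLN1. The 3 SQSTM1 windows, the 3 TFEB windows and those of GABARAPL1 and WIPI1 held none of these letters, which says only that they are not in those windows.

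The 130 bases before the start are shown, 5′ to 3′ on the gene's strand, for GAA, MCOLN1, CTSA and CTSD, which were called higher in all 6 extracts at 20 µg/mL against vehicle and hold E-boxes, for NEU1, which fell at 500 µg/mL in 3 extracts, and for CTSL, an enzyme that rose there. Capitals mark matches to any of the motifs.
GAA, chr17:80101451-80101580, plus strand: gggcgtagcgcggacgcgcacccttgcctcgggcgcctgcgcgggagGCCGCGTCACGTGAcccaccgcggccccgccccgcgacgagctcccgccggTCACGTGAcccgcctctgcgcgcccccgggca
MCOLN1, chr19:7522494-7522623, plus strand: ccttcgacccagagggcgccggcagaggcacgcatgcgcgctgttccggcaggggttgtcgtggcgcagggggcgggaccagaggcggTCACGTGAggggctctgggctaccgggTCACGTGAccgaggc
CTSA, chr20:45891205-45891334, plus strand: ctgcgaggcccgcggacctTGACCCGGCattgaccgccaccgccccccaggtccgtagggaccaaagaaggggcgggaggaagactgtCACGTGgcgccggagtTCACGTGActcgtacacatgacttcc
CTSD, chr11:1763928-1764057, minus strand: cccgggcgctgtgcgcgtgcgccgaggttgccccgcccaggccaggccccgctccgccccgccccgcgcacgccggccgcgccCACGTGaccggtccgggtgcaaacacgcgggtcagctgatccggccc
NEU1, chr6:31862822-31862951, minus strand: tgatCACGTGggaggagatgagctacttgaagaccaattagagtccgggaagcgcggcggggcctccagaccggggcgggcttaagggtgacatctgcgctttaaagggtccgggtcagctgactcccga
CTSL, chr9:87725989-87726118, plus strand: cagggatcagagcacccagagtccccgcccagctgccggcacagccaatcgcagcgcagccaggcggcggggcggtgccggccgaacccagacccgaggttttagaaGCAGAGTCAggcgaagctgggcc
GAA and MCOLN1 each carry TCACGTGA at 2 places, and CTSA carries it once beside a second E-box. CTSD and NEU1 carry 1 E-box without the longer core. Within these 130 bases TGACNNNGC is found in CTSA, in GAA, where it overlaps TCACGTGA, and in CTSL, which holds no E-box; in CTSD it lies outside them. Between 500 and 20 µg/mL MCOLN1 and CTSD were called in none of the 6 extracts, GAA rose in 1, CTSA rose in 1 and fell in 1, NEU1 fell in 3 and CTSL rose in 3. GAA, MCOLN1, CTSA and CTSD were chosen for both their E-boxes and their rises. At 20 µg/mL against vehicle the E-box genes LAMP1, ATG3, ATP6V0D1 and NEU1 were not called in any extract. FNIP1 and ATG14, also with E-boxes, fell in 1 each. ATG9A and TFE3 rose in all 6 without a match. With the GC trend removed the mean differences were 0.11 for GAA, 0.15 for MCOLN1, -0.01 for CTSA and -0.06 for CTSD. A link of motif and call was not tested. The matches are letters in a window and no measurement of binding.

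The wider autophagy and lysosome lists rose in larger shares than all genes did with Cimicifugae, Aconiti and Bupleuri. The nutrient sensing list did not stand out. No test of these lists against all genes was made. Of 40 tested further autophagy genes 21 rose and 1 fell with Cimicifugae and 14 rose and 3 fell with Aconiti at 500 against 20 µg/mL. Of 51 further lysosomal genes 26 rose and 3 fell with Cimicifugae and 19 rose and 4 fell with Aconiti. Of all genes 19.5% rose and 19.7% fell with Cimicifugae, and 19.2% rose and 18.1% fell with Aconiti. Of 19 genes of nutrient sensing 4 rose and 1 fell with Cimicifugae and 3 rose and 0 fell with Aconiti, shares of rises near or below those over all genes. The medians of the autophagy, lysosome and nutrient sensing lists were 0.16, 0.16 and 0.09 with Cimicifugae and 0.12, 0.10 and 0.03 with Aconiti, against 0.00 over all genes. OPTN, a receptor for ubiquitin-tagged mitochondria and bacteria, averaged 37.3 ± 0.81 CPM at 500 µg/mL, against 18.1 ± 0.73 CPM at 20 µg/mL with Cimicifugae (SD, n = 3 each), a rise of 1.05 ± 0.062 on the log2 scale. IDS, a sulfatase of the lysosome, averaged 34.3 ± 1.8 CPM at 500 µg/mL, against 17.5 ± 0.49 CPM at 20 µg/mL, a rise of 0.97 ± 0.067. Both groups of each gene stood apart. RPTOR, the scaffold of mTORC1, fell with Cimicifugae (-0.18 ± 0.061), as did PIK3R4, a subunit of the PI3-kinase complex (-0.17 ± 0.049).

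With Aconiti the largest rise of these lists was DDIT4, a stress-induced inhibitor of mTORC1, which averaged 71.03 ± 3.1 CPM at 500 µg/mL, against 29.2 ± 1.5 CPM at 20 µg/mL (SD, n = 3 each), a rise of 1.28 ± 0.087 on the log2 scale. OPTN rose there by 0.82 ± 0.062. AMBRA1, which binds BECN1, fell there (-0.31 ± 0.056). With Bupleuri 12 of 40 autophagy genes, 9 of 51 lysosomal genes and 1 of 19 nutrient sensing genes rose and 1 lysosomal gene fell. Of all genes 9.9% rose and 8.89% fell there. BNIP3L, a receptor for mitochondria, and IDS rose most (0.59 ± 0.064 and 0.58 ± 0.066), and the fall was ATP6V1B2, a pump subunit (-0.12 ± 0.035). With Banhasasim-tang BNIP3L (0.41 ± 0.064) and its relative BNIP3 (0.40 ± 0.053) rose most, and IDUA (-1.22 ± 0.39, with a mean of 0.738 ± 0.11 CPM at 500 µg/mL, against 1.72 ± 0.30 CPM at 20 µg/mL) and SMPD1 (-0.37 ± 0.068), both lysosomal hydrolases, fell most. In all, 3 of 40 autophagy, 5 of 51 lysosomal and 1 of 19 nutrient sensing genes rose there and 4 lysosomal genes fell. Of all genes 8.59% rose and 6.52% fell with Banhasasim-tang, so that the rises of these lists were near that share. Citri had DDIT4 lower (-0.46 ± 0.094) and Yijung-tang had BNIP3 higher (0.18 ± 0.054) as the single calls of these lists. Of all genes 0.92% fell with Citri and 1.65% rose with Yijung-tang.

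Per kilobase of transcript the levels in vehicle were highest for CTSD (133 CPM per kb), CTSA (114), CTSB (95.7) and SQSTM1 (78.0) and lowest for RRAGD (0.153), GABARAPL1 (3.02) and ATG7 (3.26). GABARAPL1 was thus the least abundant of the 4 listed ATG8 genes in vehicle, where GABARAP stood at 69.7 CPM per kb, MAP1LC3B at 30.5 and GABARAPL2 at 17.1. Over the 19 replicated groups SQSTM1 had the widest range of group means, 1.62 on the log2 scale, with the lowest in vehicle and the highest at 500 µg/mL Aconiti. GABARAPL1 followed with 1.22, and ATG12 (0.17), ATP6V0D1 (0.18) and LAMP2 (0.19) had the narrowest.

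In the single libraries of Bojungikgi-tang, which allow no test, SQSTM1 had 248 CPM at 20 µg/mL, 260.3 CPM at 100 µg/mL and 297 CPM at 500 µg/mL. GLA had 23.3, 27.0 and 30.9 CPM in the same order, and TFEB 13.7, 16.2 and 14.1 CPM. Between 500 and 20 µg/mL only RRAGD was past 1.5-fold, with 0.590 CPM at 500 µg/mL, against 1.08 CPM at 20 µg/mL, whereas 7.34% of all genes were past that fold in either direction. SQSTM1 and GLA differed by 0.26 and 0.41 on the log2 scale.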

How the data were processed

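RNA-seq counts per gene of 60 HepG2 libraries were used as estimated counts, which the authors deposited in 1 table of 60675 genes. Per the submitters' processing notes, tools included FastQC 0.11.9, Trim Galore 0.6.5, STAR 2.7.3a and RSEM 1.3.3, with builds hg38 and GRCh38; the annotation release and the strand setting are not given in the sources used here, so overlapping and antisense genes cannot be told apart. Of the nonzero values 24.5% were not whole, and all were rounded. The table holds 207 columns that are not of these samples and were not used. Of the gene identifiers 57055 are in GENCODE 29, whose positions are given; the rest held 0.0398% of counts.

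All 57 replicated libraries in 19 groups entered 1 edgeR 4.0.16 quasi-likelihood fit (R 4.3.3) after its expression filter and TMM scaling (factors 0.898 to 1.04), which left 16093 genes; the common biological coefficient of variation was 4.86%. P-values were adjusted by Benjamini-Hochberg over all genes within a comparison, with a threshold of 0.05. CPM uses the TMM-scaled totals, and errors are standard errors from the fit unless given as SD. Alternatives were DESeq2 1.42.0, median-ratio scaling, no filter or a mean CPM of 1 or more, a fit of only the libraries compared, a replicate block, a GC trend (spline, 5 degrees of freedom) removed from each library, and each library left out in turn. No pair of libraries was identical (0 pairs). The fit was tested on simulated data.

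The 39 genes and the other lists were chosen with earlier results of these data known. Values in every library are given for genes called alike between 500 and 20 µg/mL in 5 or more extracts, for those called with a log2 change of 0.5 or more in size, and for the 3 largest rises and 3 largest falls per extract. Other genes given with values in every library were chosen after their values were seen. Replicate numbers were not used to pair the samples. Over all tested genes, the deviations of libraries with the same number correlated at -0.0434 to 0.131 between the groups compared. Such weak correlations do not show that pairing is absent. For example, LAMP1 was lowest in the first library of every Yijung-tang and Banhasasim-tang dose group.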

Additional observations from a re-analysis of the deposited data

Results flagged for a closer look

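The dose effect (500 against 20 µg/mL) differed between the extracts of a set, by the interaction term of the edgeR fit with Benjamini-Hochberg adjustment over all genes, for 9 values with the smallest p, 3 per set. The difference of Cimicifugae minus Citri was 0.95 ± 0.046 on the log2 scale for SQSTM1 (adjusted p = 7.21e-22), 0.93 ± 0.074 for WIPI1 (2.29e-14) and 1.13 ± 0.12 for GABARAPL1 (2.59e-10). That of Aconiti minus Bupleuri was 0.72 ± 0.045 for SQSTM1 (3.41e-17), 0.34 ± 0.044 for CTSB (5.6e-08) and 0.38 ± 0.082 for CTSL (0.000701). That of Banhasasim-tang minus Yijung-tang was -0.30 ± 0.056 for CTSA (0.000103), -0.28 ± 0.054 for NEU1 (0.000137) and 0.22 ± 0.045 for SQSTM1 (0.000417).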

How the results depend on the processing

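Over 27 comparisons, 340 of 369 counts of called genes under an alternative were within 1.5 times the count given above, and of 388 alternative values for 30 single results 359 remained called, 29 did not and 0 reversed. With the GC trend removed, 20 µg/mL against vehicle gave 4 calls with Citri (14 as fitted), 8 with Cimicifugae (14), 5 with Bupleuri (18), 12 with Aconiti (19), 8 with Yijung-tang (22) and 3 with Banhasasim-tang (20), and 500 µg/mL against vehicle gave 10 with Yijung-tang (22) and 11 with Banhasasim-tang (18). A fit of only the libraries compared, with fewer samples, gave 1 call with Citri, 1 with Yijung-tang and 5 with Banhasasim-tang at 500 against 20 µg/mL. At 100 against 20 µg/mL DESeq2 gave 2 with Cimicifugae and 3 with Yijung-tang, the GC correction 2 with Yijung-tang, and no filter 2 with Aconiti. The causes were not tested. With each library left out in turn, counts at 500 against 20 µg/mL ran from 1 to 2 with Citri, 1 to 3 with Yijung-tang and 5 to 9 with Banhasasim-tang, at 100 against 20 µg/mL from 1 to 2 with Cimicifugae and 2 to 4 with Aconiti, and at 20 µg/mL against vehicle from 8 to 12 with Cimicifugae. Replicate numbers were not used to pair the samples. With a replicate block the counts at 500 against 20 µg/mL were 2, 27, 14, 23, 2 and 8. These are for Citri, Cimicifugae, Bupleuri, Aconiti, Yijung-tang and Banhasasim-tang in that order. No count moved by over 1.5 times under that block. The block takes out the same shift per replicate number in all sets, so it cannot take up shifts that differ between sets. Low counts limit ULK2, which was not tested, and RRAGD.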
